A study of Mus musculus with 7 samples.

Results

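The genes described here are the keratins that mark the layers of prostate and urinary tract epithelium: Krt8, Krt18, Krt7 and Krt19 of simple and luminal cells, Krt5, Krt14, Krt15 and Krt17 of basal cells, and Krt13 and Krt20 of the urothelium. They were chosen by gene symbol from knowledge of these layers, with earlier results of these data known. Of the 10, 9 were held in the files, among 16019 genes in all, and Krt13 is not analysed here. All mice had experimental autoimmune prostatitis (EAP), an inflammation of the prostate raised by immunisation. The LIT-927 group received 25 mg/kg of LIT-927, a compound that binds the chemokine CXCL12, by intraperitoneal injection each day for 14 days, and the vehicle group received the solvent methyl-β-cyclodextrin in the same way. RNA of whole prostate was sequenced in 3 vehicle libraries (replicates 1, 3 and 4) and 4 LIT-927 libraries (replicates 1 to 4). No group of mice without EAP was analysed here. The labels give neither strain nor age and do not say that each library came from its own animal, so the p-values measure only the spread between these libraries, which may in part be technical.

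Keratins form the intermediate filaments of epithelial cells, and each filament is built of pairs of a type I and a type II keratin. In the prostate, a layer of basal cells that carries KRT5 and KRT14 lies under secretory luminal cells that carry KRT8 and KRT18, and the bladder and urethra are lined by urothelium, whose umbrella cells at the surface carry KRT20 and the uroplakins. KRT7 and KRT19 occur in many simple and ductal epithelia and in urothelium.

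The libraries held 32023785 to 35240765 fragments but differed in tissue content. Transcripts of 7 seminal vesicle secretory genes took from 11.4% of all FPKM (fragments per kilobase of gene, relative to the fragments of the library) in vehicle replicate 1 to 67.4% in vehicle replicate 4. Svs1, one of these genes, ranged from 38.8 FPKM in LIT-927 replicate 2 to 25355 FPKM in vehicle replicate 4. Akr1b7, abundant in the vas deferens, lay between 15.9 and 17099 FPKM. Upk1a, a uroplakin of umbrella cells, reached 172 FPKM in replicate 3 of the vehicle group and 253 FPKM in replicate 3 of the LIT-927 group, with 2.64 to 10.1 FPKM in the other 5 libraries. Prostate luminal transcripts were present in every library, with Hoxb13, a transcription factor of the prostate, at 13.3 to 377 FPKM and Pbsn, which encodes the secretory protein probasin, at 129 to 11311 FPKM. FPKM are shares of a library, so a level can be lower where secretory transcripts take up more of it, and in bulk tissue fewer cells of a type and less RNA per cell cannot be told apart.

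Over the 9 keratins, the luminal filament pair Krt8 and Krt18 had slightly higher means after LIT-927 and the 4 basal keratins all had lower ones, but no keratin passed the test. The limma fit to log2(FPKM + 1) called 0 of 9 keratins at an adjusted p under 0.05 (adjusted p = 0.998 for each), against 0% of the 16019 genes. In that fit 589 genes and none of the keratins had an unadjusted p under 0.05, and voom on the recovered fragments likewise called 0. Of the keratins, 7 of 9 were lower and their median log2 difference was −0.45, while 7131 of 16019 genes were lower and the median over all genes was 0.02. On the FPKM as deposited, no keratin had every LIT-927 library below every vehicle library, a pattern held by 2.12% of genes, and none had every LIT-927 library above, held by 1.08%.

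**Figure D1:**
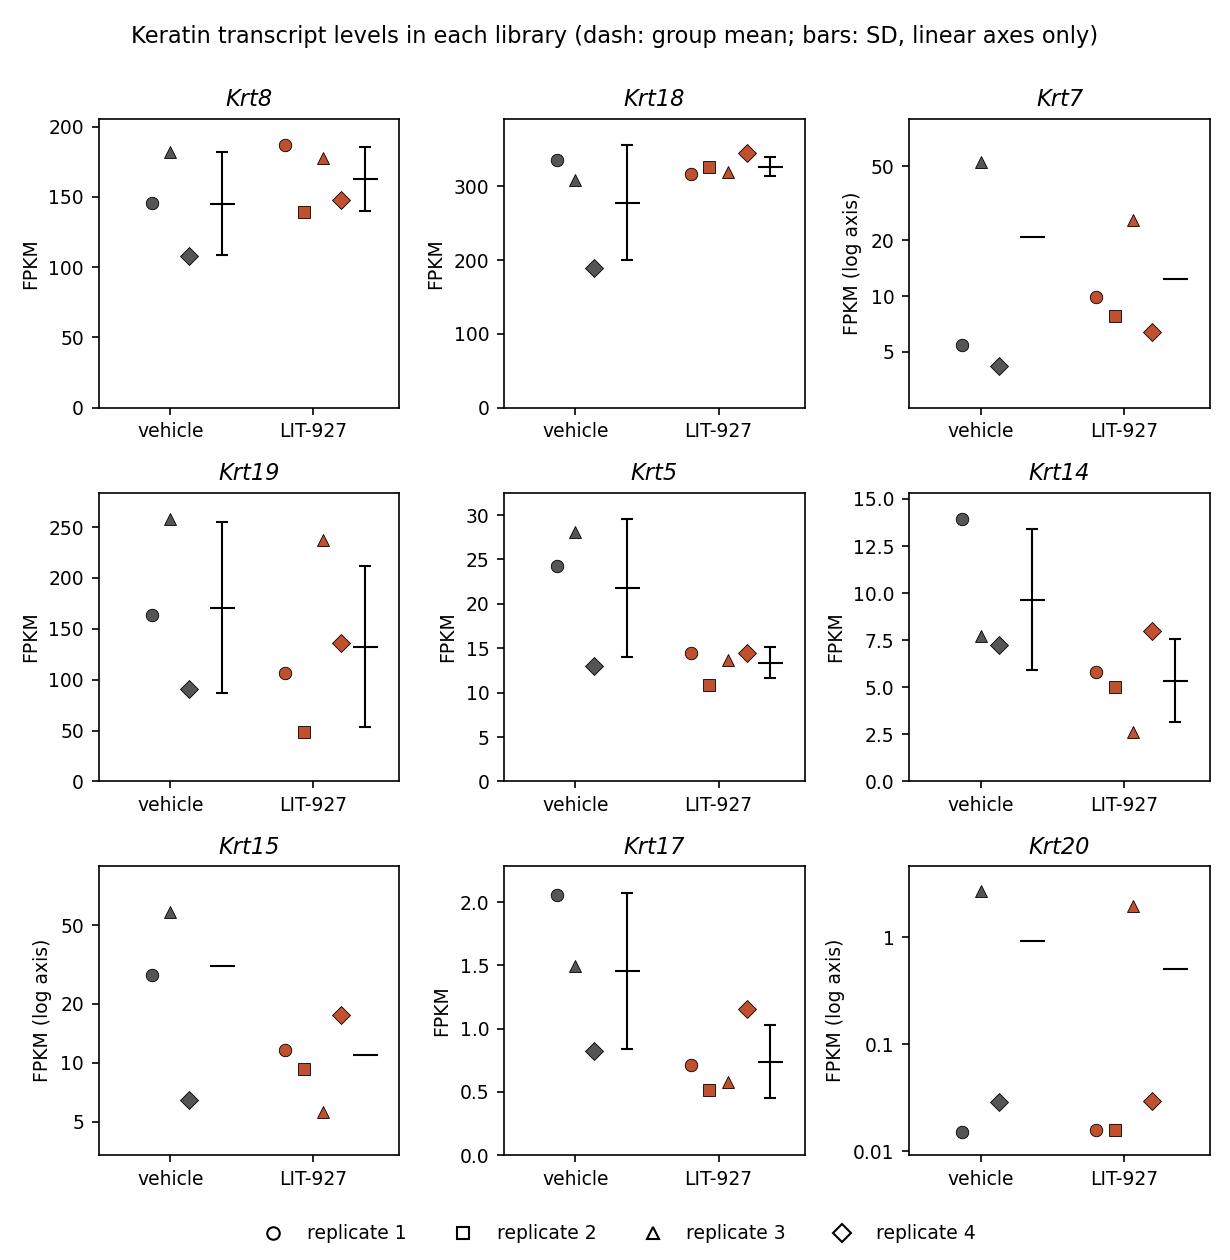
FPKM of the 9 keratins (y axes, log scale for Krt7, Krt15 and Krt20) in the vehicle and LIT-927 libraries (x axes). Symbols are replicates, dashes are group means and bars are SD on the linear axes only. The groups overlap for every keratin, and replicate 3 of both groups stands highest in its group for Krt7, Krt19 and Krt20.

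By their means over 7 libraries the keratins ordered as Krt18 (306 FPKM), Krt8 (155 FPKM), Krt19 (149 FPKM), Krt15 (19.6 FPKM), Krt5 (17.0 FPKM), Krt7 (16.0 FPKM), Krt14 (7.19 FPKM), Krt17 (1.05 FPKM) and Krt20 (0.681 FPKM). FPKM are scaled by gene length, so these levels can be set beside each other. Krt18 exceeded Krt8 in every library and Krt14 exceeded Krt17 in every library. Krt8 and Krt19 overlapped in range, as did Krt15, Krt5 and Krt7 among themselves, and Krt20 exceeded Krt17 in vehicle replicate 3 and LIT-927 replicate 3. Together the 9 keratins made up 0.0515% to 0.161% of all FPKM.

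Krt8 encodes the type II keratin of luminal and other simple epithelia (chromosome 15, 101996698 to 102004482, minus strand, mm10). It was at 146, 182 and 108 FPKM in vehicle replicates 1, 3 and 4 and at 187, 139, 178 and 148 FPKM in LIT-927 replicates 1 to 4. Both groups covered much the same range, and the lowest library was vehicle replicate 4, the one richest in seminal vesicle transcripts. The log2 difference, LIT-927 minus vehicle, was 0.19 (SE 0.26, 95% interval −0.41 to 0.78; limma adjusted p = 0.998). Without vehicle replicate 4 it was −0.01, so the direction rested on that library. Of the 50-base words of the Krt8 transcript, 26.9% also occur in the pseudogene Krt8-ps, and the exons of Gm36026 overlap it, so its level is uncertain to that extent.

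Krt18 encodes the type I partner of KRT8 and was the most abundant keratin in each library (chromosome 15, 102028180 to 102032027, plus strand). It was at 336, 308 and 189 FPKM in the vehicle libraries and at 316, 326, 320 and 345 FPKM in the LIT-927 libraries. The LIT-927 libraries lay close together, and vehicle replicate 4 lay apart below. Group means were 278 ± 78.2 FPKM (SD, n = 3) and 327 ± 12.9 FPKM (SD, n = 4), a log2 difference of 0.28 (SE 0.29, 95% interval −0.40 to 0.95; limma adjusted p = 0.998). The difference was 0.02 without vehicle replicate 4. Dividing by median-of-ratios factors, which set the typical gene level across libraries, placed vehicle replicate 4 at 285, beside 258 and 287 in the other vehicle libraries.

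Krt8 and Krt18 were among the steadier genes. The SD of log2(FPKM + 1) over 7 libraries was 0.28 for Krt8 and 0.30 for Krt18, and 25.5% and 32.2% of the 11060 genes with a mean of at least 1 FPKM had a smaller one. The ratio of Krt8 to Krt18 stayed between 0.427 and 0.592. Their genes are neighbours, with 23697 bases between them, and Krt18 is the only type I member on chromosome 15, where the 3 type II members lie. The other 6 members, all type I, lie on chromosome 11.

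Krt7 encodes a type II keratin of ductal epithelia and urothelium (chromosome 15, 101411043 to 101430313, plus strand). It was at 5.45, 52.9 and 4.18 FPKM in the vehicle libraries and at 9.86, 7.85, 25.6 and 6.37 FPKM in the LIT-927 libraries. Replicate 3 of each group was far above the rest, and these are the same libraries that held the most Upk1a. The range was 12.7-fold, and 96.4% of the compared genes varied less. The log2 difference of −0.05 (SE 0.84, 95% interval −2.01 to 1.90; limma adjusted p = 0.998) had no fixed direction: it was 1.02 without vehicle replicate 3 and 0.63 without replicate 3 of both groups.

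Krt19 encodes the smallest type I keratin, found in ductal and luminal cells and in urothelium (chromosome 11, 100140810 to 100148665, minus strand). It was at 163, 258 and 91.2 FPKM in the vehicle libraries and at 106, 48.9, 238 and 136 FPKM in the LIT-927 libraries. The highest library of each group was again replicate 3, and the lowest of all was LIT-927 replicate 2. The log2 difference was −0.45 (SE 0.56, 95% interval −1.76 to 0.86; limma adjusted p = 0.998), and it shrank to −0.05 without LIT-927 replicate 2. The ratio of Krt7 to Krt19 ranged from 0.0333 to 0.205, so these keratins did not keep a steady proportion as Krt8 and Krt18 did.

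The promoter windows of 3 keratins are shown because they stand for the basal, umbrella cell and ductal keratins. RefSeq windows on GRCm38.p6 were found for 7 of the 10 members, and the 250 bases before the start are printed 5′ to 3′ on the gene's strand for Krt5 (chr15:101712906-101713155, minus), Krt20 (chr11:99438154-99438403, minus) and Krt7 (chr15:101412153-101412402, plus). Capitals mark matches on either strand to 5 motifs: the TATA box (letters TATAAA), a variant of it (letters ATAAAAG), the GC box (letters GGGCGG), the AP-1 site (letters TGANTCA) and a GATA site (letters AGATAA).
Krt5: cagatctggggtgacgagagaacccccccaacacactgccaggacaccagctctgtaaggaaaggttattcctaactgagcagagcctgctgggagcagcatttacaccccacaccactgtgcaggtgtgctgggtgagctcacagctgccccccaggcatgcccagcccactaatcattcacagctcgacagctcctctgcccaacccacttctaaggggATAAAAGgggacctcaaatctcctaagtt
Krt20: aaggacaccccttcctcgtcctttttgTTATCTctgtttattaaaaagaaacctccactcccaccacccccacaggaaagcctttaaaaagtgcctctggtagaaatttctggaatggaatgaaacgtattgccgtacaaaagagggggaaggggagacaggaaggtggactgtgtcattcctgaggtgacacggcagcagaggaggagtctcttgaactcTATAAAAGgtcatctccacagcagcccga
Krt7: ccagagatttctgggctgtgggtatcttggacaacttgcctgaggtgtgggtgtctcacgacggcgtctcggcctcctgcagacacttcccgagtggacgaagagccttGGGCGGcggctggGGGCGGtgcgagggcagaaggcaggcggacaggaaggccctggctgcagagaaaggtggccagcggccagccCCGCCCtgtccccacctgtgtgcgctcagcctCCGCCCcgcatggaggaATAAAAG
ATAAAAG, added to the search after the windows were seen, lay 29 to 23 bases before the start of Krt5 and 28 to 22 bases before that of Krt20, where it overlaps a TATAAA match. In Krt7 it ended at the base before the RefSeq start, which lies 1360 bases inside the GENCODE gene, and the window held 4 GC boxes. ATAAAAG occurred in 4.83% of 32851 windows of this length, TATAAA in 12.4%, GGGCGG in 32.7% and AGATAA in 9.99%. Krt20 held the AGATAA match on the reverse strand, 223 to 218 bases before its start. Among the other keratins analysed here, the windows of Krt8, Krt18 and Krt14 held neither ATAAAAG nor TATAAA. The RefSeq start of Krt14 lies 1518 bases inside the GENCODE gene. All these matches describe letters in the windows only.

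Krt5 encodes the type II keratin of basal cells in stratified and prostate epithelium (chromosome 15, 101707070 to 101712898, minus strand). It was at 24.2, 28.0 and 13.0 FPKM in the vehicle libraries and at 14.5, 10.8, 13.7 and 14.5 FPKM in the LIT-927 libraries. Vehicle replicates 1 and 3 stood above all others, whereas vehicle replicate 4 lay among the LIT-927 libraries. The means were 21.8 ± 7.80 FPKM (SD, n = 3) and 13.4 ± 1.74 FPKM (SD, n = 4), a log2 difference of −0.61 (SE 0.28, 95% interval −1.26 to 0.04; unadjusted p = 0.0634, limma adjusted p = 0.998). Of its 50-base words, 8.52% occur in other transcripts, chiefly those of Krt6a, and Gm44323 overlaps its exons.

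Krt14 encodes the type I partner of KRT5 (chromosome 11, 100203162 to 100207548, minus strand). It was at 13.9, 7.73 and 7.25 FPKM in the vehicle libraries and at 5.82, 5.0, 2.63 and 7.97 FPKM in the LIT-927 libraries. Only LIT-927 replicate 4 reached into the vehicle range. The log2 difference was −0.76 (SE 0.37, 95% interval −1.61 to 0.09; unadjusted p = 0.0723, limma adjusted p = 0.998). Krt14 shares 14.4% of its 50-base words with other transcripts, those of Krt16 and Krt17.

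Krt15 encodes a type I keratin of basal cells that is also known from epithelial progenitors (chromosome 11, 100131758 to 100135928, minus strand). It was at 27.9, 58.8 and 6.49 FPKM in the vehicle libraries and at 11.5, 9.31, 5.63 and 17.6 FPKM in the LIT-927 libraries. Vehicle replicates 1 and 3 were highest, and vehicle replicate 4 was lower than all LIT-927 libraries but replicate 3. Its log2 difference of −1.06 had a wide error (SE 0.68, 95% interval −2.65 to 0.52; limma adjusted p = 0.998). It was −0.39 without vehicle replicate 3, −1.89 without vehicle replicate 4 and −0.14 without replicate 3 of both groups.

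Krt17 encodes a type I keratin of basal cells that is induced in injured epithelium (chromosome 11, 100256217 to 100261029, minus strand). It was at 2.05, 1.5 and 0.821 FPKM in the vehicle libraries and at 0.714, 0.517, 0.576 and 1.15 FPKM in the LIT-927 libraries. LIT-927 replicate 4 alone exceeded vehicle replicate 4, and the other LIT-927 libraries lay below every vehicle library. The values rest on 86, 63 and 36 fragments with vehicle and on 29, 21, 23 and 50 with LIT-927. The log2 difference was −0.48 (SE 0.22, 95% interval −0.98 to 0.03; unadjusted p = 0.0597, limma adjusted p = 0.998). It shares 4.0% of its 50-base words with other transcripts, mostly Krt14.

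After median-of-ratios scaling the basal keratins Krt5, Krt14 and Krt17 parted between the groups, and Krt15 did not. Krt5 was then at 18.6, 26.1 and 19.7 with vehicle and at 12.8, 10.7, 16.9 and 12.5 with LIT-927. Krt14 was at 10.7, 7.18 and 10.9 with vehicle and at 5.13, 4.94, 3.24 and 6.90 with LIT-927. Krt17 was at 1.58, 1.39 and 1.24 with vehicle and at 0.629, 0.511, 0.711 and 0.999 with LIT-927. In these 3 of 9 keratins every LIT-927 library lay below every vehicle library, a pattern held by 4.99% of all genes, and no keratin lay above throughout. The scaled log2 differences were −0.66 for Krt5 (SE 0.18), −0.82 for Krt14 (SE 0.24) and −0.49 for Krt17 (SE 0.12), each with a limma adjusted p of 0.568, so none passed the test. Krt15 still overlapped, at 21.4, 54.7 and 9.79 with vehicle and 10.2, 9.19, 6.94 and 15.2 with LIT-927. Scaling was an alternative, and reading the separation on it was chosen after the values were seen.

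**Figure D2:**
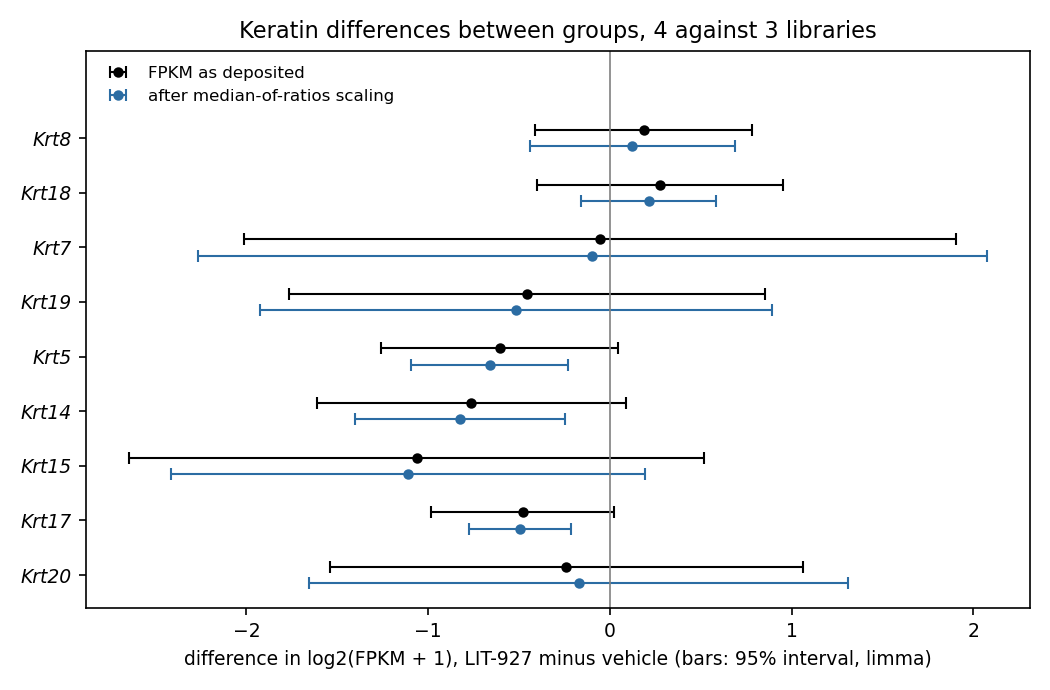
Differences in log2(FPKM + 1), LIT-927 minus vehicle, for each keratin (points) with 95% limma intervals (bars), from FPKM as deposited (black) and after median-of-ratios scaling (blue). All black intervals span 0, and the blue ones of Krt5, Krt14 and Krt17 lie below 0 although none passed adjustment over all genes.

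Basal keratins were also set against the luminal keratins of the same library, which needs no library-wide scale; these ratios were chosen after the values were seen. Krt5 stood at 7.21%, 9.10% and 6.90% of the Krt18 level with vehicle and at 4.58%, 3.32%, 4.29% and 4.19% with LIT-927. Krt14 stood at 4.15%, 2.51% and 3.83% of Krt18 with vehicle and at 1.84%, 1.53%, 0.821% and 2.31% with LIT-927. For these genes and Krt17 (0.434% to 0.611% against 0.159% to 0.334%) the groups did not overlap, 3 of 8 keratins, whereas 11.3% of all genes were lower relative to Krt18 in every LIT-927 library.

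Krt8 as the reference gave fewer separations. Krt5 was the 1 of 8 keratins whose groups did not overlap relative to Krt8, against 3.16% of all genes. The ratio of Krt5 to Krt8 was 0.166, 0.154 and 0.121 with vehicle and 0.0774, 0.0778, 0.0773 and 0.0976 with LIT-927, or 0.147 ± 0.0237 (SD, n = 3) and 0.0825 ± 0.0101 (SD, n = 4). As a share of the 9 keratins, the 4 basal ones made up 9.47%, 10.7% and 6.57% with vehicle and 4.99%, 4.68%, 2.87% and 6.08% with LIT-927.

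**Figure D3:**
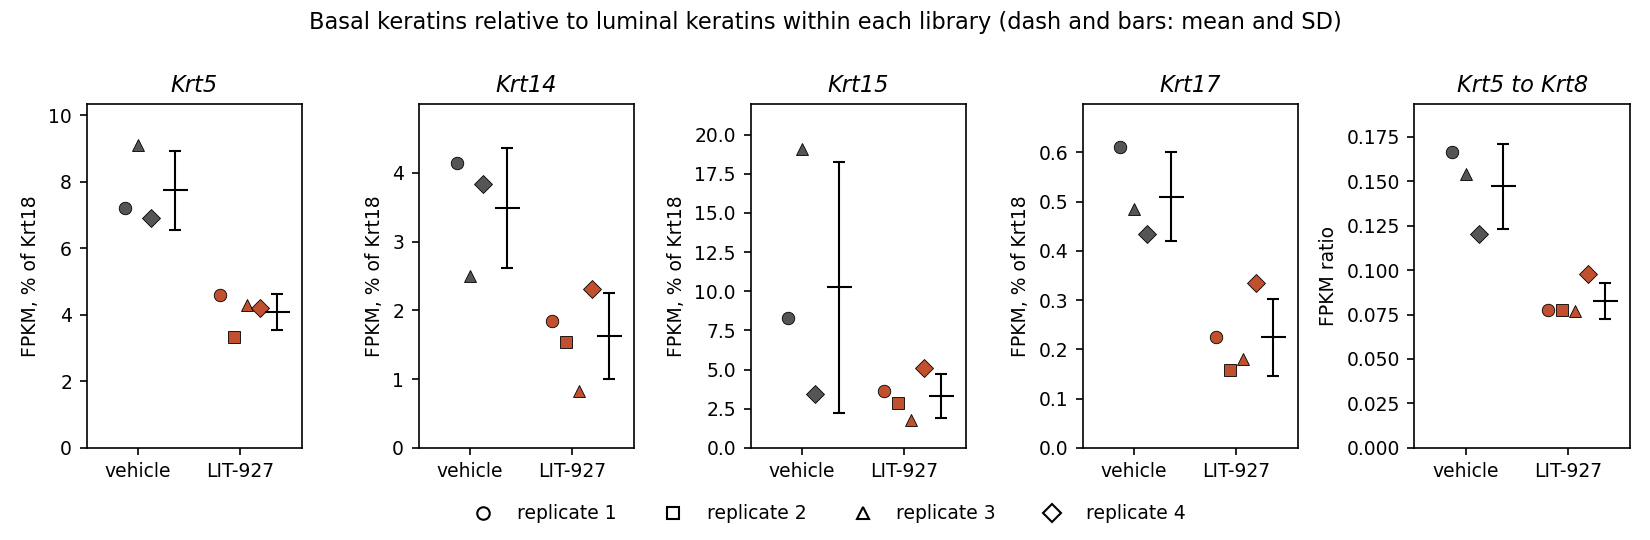
Basal keratins within each library as a percentage of the Krt18 level (first 4 panels) and Krt5 over Krt8 (last panel), by group. Symbols are replicates and the dash with bars is the mean ± SD. The groups separate for Krt5, Krt14 and Krt17 and overlap for Krt15.

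The basal keratins did not keep fixed proportions to each other. The ratio of Krt5 to its partner Krt14 was 1.74, 3.63 and 1.80 with vehicle and 2.49, 2.16, 5.22 and 1.81 with LIT-927, highest in replicate 3 of both groups. Krt5 over Krt15 ranged from 0.477 to 2.44, and Krt17 over Krt14 from 0.103 to 0.219. Other basal cell genes leaned the same way: 8 of 8 on a list with Trp63, Itga6 and Ngfr had lower means after LIT-927 (median log2 difference −0.58), with 0 called. Their summed level was 13.5 to 55.0 FPKM with vehicle and 12.7 to 25.1 FPKM with LIT-927, and none was at 0 in any library. Trp63, a transcription factor of basal cells, was at 3.90, 3.24 and 2.21 FPKM with vehicle and 2.62, 2.74, 1.27 and 2.69 FPKM with LIT-927. Lower means also occurred outside the basal genes. The prostate luminal genes Hoxb13, Pbsn, Tgm4, Msmb and Sbp are part of a longer list and not all of it. Their means of log2(FPKM + 1) were lower in 5 of 5 (median log2 difference −0.53), with 0 called. On the FPKM scale, however, the mean of Sbp was higher with LIT-927 (30136 FPKM) than with vehicle (17903 FPKM). The summed level of these luminal genes was 2666 to 59584 FPKM with vehicle and 5526 to 115888 FPKM with LIT-927. Of the 6 urothelial genes, 5 were lower (median −0.19) with 0 called. The smooth muscle genes were lower in 6 of 6, with 0 called, and their median log2 difference (−0.79) was below that of the basal list. Their summed level was 2793 to 9922 FPKM with vehicle and 850.4 to 5616 FPKM with LIT-927. All 6 were detected in each library, and the part of tissue content in the basal keratin values was not tested.

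Krt20 encodes the type I keratin of umbrella cells (chromosome 11, 99428403 to 99438150, minus strand). It was at 0.0152, 2.71 and 0.029 FPKM in the vehicle libraries and at 0.016, 0.016, 1.95 and 0.0294 FPKM in the LIT-927 libraries. These values stand for 1, 179 and 2 fragments with vehicle and for 1, 1, 122 and 2 with LIT-927. Krt20 was thus near absence in 5 libraries and clearly detected in replicate 3 of each group. The log2 difference of −0.24 (SE 0.56, 95% interval −1.54 to 1.06; limma adjusted p = 0.998) was 0.38 without vehicle replicate 3.

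Upk1a and Upk3a were highest in the same pair of libraries. In replicate 3, Upk3a reached 21.4 FPKM with vehicle and 27.2 FPKM with LIT-927, and it lay from 0 to 1.02 FPKM elsewhere. Upk1b, another uroplakin, did not share this pattern, with 26.5, 38.3 and 14.4 FPKM with vehicle and 15.02, 11.3, 19.7 and 27.3 FPKM with LIT-927. The summed level of the 6 urothelial genes was 435 and 364 FPKM in that pair and 30.8 to 71.0 FPKM in the other 5 libraries. With vehicle replicate 3 and LIT-927 replicate 3 both left out, Krt5, Krt14 and Krt17 were still lower in every remaining LIT-927 library after scaling, together with Krt19, 4 of 9 keratins against 13.0% of all genes.

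**Figure D4:**
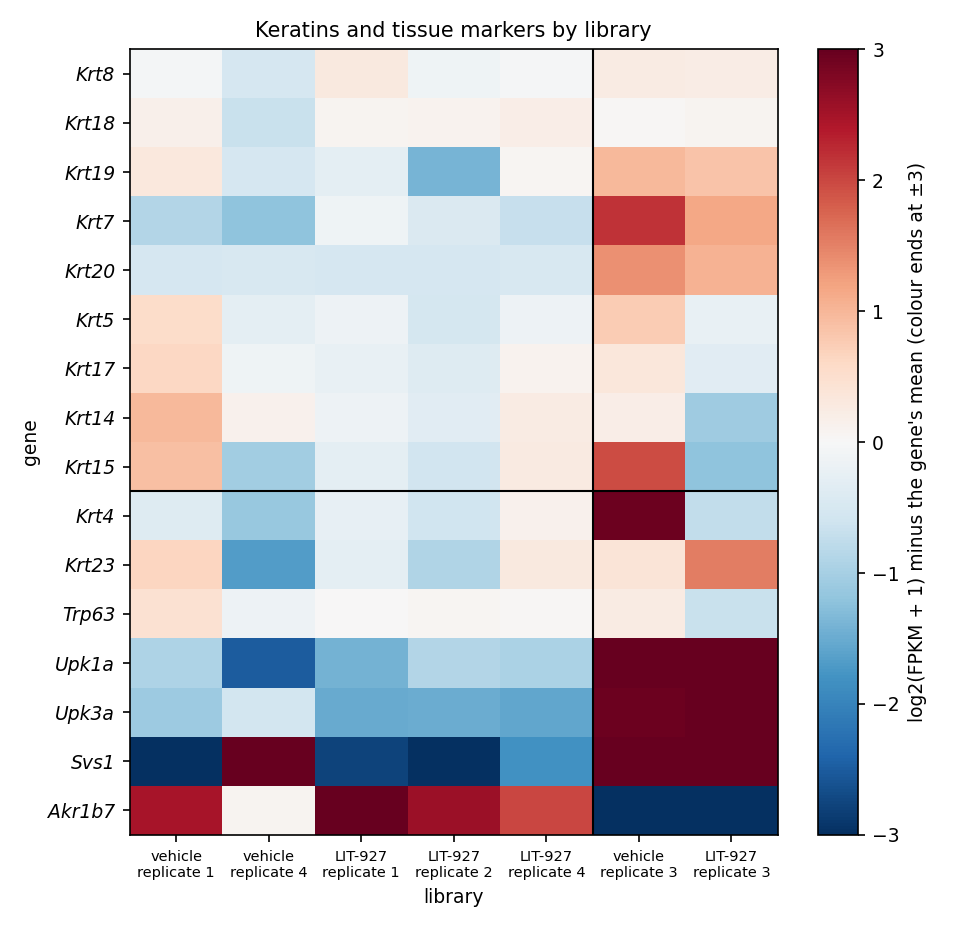
Each gene's log2(FPKM + 1) minus its mean over 7 libraries (colour, ending at ±3), with the keratins above and tissue markers below the horizontal line. Replicate 3 of both groups is placed last, where Krt7, Krt19, Krt20, Upk1a and Upk3a are high in both libraries. Within this pair, Krt14 and Krt15 are low in the LIT-927 library only, and Krt15 is also low in vehicle replicate 4.

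Keratins outside the set of 10 did not lean one way. Of 23 on a list, 8 were in the files, 4 lower and 4 higher with a median log2 difference of 0.03, and 0 were called. Krt4, a type II keratin of non-cornified stratified epithelium that pairs with KRT13, was at 1.17, 20.8 and 0.279 FPKM with vehicle and at 1.38, 0.861, 0.701 and 2.08 FPKM with LIT-927. It was thus high in vehicle replicate 3 but not in LIT-927 replicate 3, unlike Krt20. Krt23, a type I keratin, was at 13.5, 11.2 and 1.90 FPKM with vehicle and at 6.58, 3.97, 25.8 and 10.3 FPKM with LIT-927. Krt10, of the upper epidermis, stayed between 0.268 and 1.40 FPKM. Krt6a and Krt16 are not analysed here.

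Keratin filaments are tied to the cell border by desmosomes and to the basement membrane by hemidesmosomes. Of 18 desmosome and hemidesmosome genes, 17 were in the files, 10 lower and 7 higher with a median log2 difference of −0.10, and 0 were called. Dsp, the desmosomal anchor of keratins, was at 9.62 to 21.3 FPKM with a difference of 0.06. Plec, which links keratins to hemidesmosomes, was at 3.64 to 9.16 FPKM with a difference of −0.28. The hemidesmosome genes, set apart after their values were seen, were lower in 5 of 5, with log2 differences of −0.77 for Itga6, −0.74 for Col17a1, −0.50 for Itgb4 and −0.38 for Dst beside that of Plec, and 4 of them are also on the basal list. The general epithelial genes Epcam, Cdh1, Cldn7 and Esrp1 had higher means in 4 of 4 (median 0.35), with 0 called. The difference of Esrp1 was only 0.02, and each of these genes was lowest in vehicle replicate 4.

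Genes with library patterns most like a keratin were ranked by the root mean square difference of centred log2(FPKM + 1) over 7 libraries, as a description. For Krt5 they were Nol3 (0.115), Serpinb5 (0.118) and Plaat3 (0.121), against a median of 0.46 over 11059 genes. Krt17 came 38th for Krt5 (0.216), but Krt14, its filament partner, was at 0.472, beyond that median. For Krt8 they were Ipp (0.0619), Pik3r3 (0.0659) and Hibch (0.0668), with Krt18 at 0.212 and a median of 0.326. For Krt20 they were Sox9 (0.116), Klf5 (0.171) and Vsig2 (0.211), against a median of 0.874. In replicate 3, Sox9 reached 20.3 FPKM with vehicle and 14.9 FPKM with LIT-927, and it was at 3.47 to 4.32 FPKM in the others. Krt7 came 212th (0.466) and Krt19 384th (0.536) for Krt20.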

How the data were processed

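Total RNA of whole mouse prostate was sequenced in 7 libraries, grouped by the treatment in the labels. Tools named in the submitters' processing notes are HISAT2, HTSeq and fastp, with the build mm10. Their versions, the strand setting and the annotation were not given in the sources used here. FPKM were deposited by the authors; the headers read only expression, so this unit was inferred from step sizes and sums. In all 16019 genes the steps gave whole fragments (tolerance 0.01 fragments), with library totals of 32023785 to 35240765, so depth was even. No libraries were identical.

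Differences were fitted over all genes with limma 3.58.1 in R 4.3.3 with a mean-variance trend on log2(FPKM + 1), which understates changes of low genes, with Benjamini-Hochberg adjustment over 16019 genes and a threshold of 0.05. A count model was not used as the main test because the files hold FPKM. The code was checked on simulated data. Tables and figures used Python 3.11.15, NumPy 2.4.6, pandas 2.3.3 and matplotlib 3.10.9. Alternatives were a pseudocount of 0.1, a filter of 1 FPKM in 3 libraries, scaling by upper quartiles or median ratios, the replicate number as a block, each library left out, replicate 3 of both groups left out and, added after the data were seen, voom. Ratios within a library are FPKM ratios with no test.

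The members and all gene lists were chosen with earlier results of these data known. All members are named. Of other lists Krt4, Krt6a, Krt10, Krt16, Krt23, Trp63, Upk1a, Upk3a, Svs1, Akr1b7, Dsp and Plec are named. For Krt5, Krt8 and Krt20 the 3 genes most alike are also named, and this ranking was not made for Krt13. Other genes named were chosen after their values were seen. Gene coordinates are GENCODE M21 on GRCm38, which is mm10. Shared words are 50-base stretches found in transcripts of other genes. RefSeq windows (GRCm38.p6) were searched on both strands. Some listed genes are not reported here.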

Additional observations from a re-analysis of the deposited data

Results flagged for a closer look

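In 5 of 19 genes tested, 1 of the 4 LIT-927 libraries lay farther from the other 3 than Dixon's 95% critical value allows, and each time it was replicate 3. For independent, normally distributed values, chance alone marks about 1 group in 20. These genes are not independent, and they were chosen with earlier results of these data known. Their FPKM also need not be normally distributed, so that rate is no baseline for this count. Krt20 was at 1.95 FPKM there, against 0.0157 to 0.0294 FPKM in the other LIT-927 libraries. Upk1a was at 253 FPKM, against 6.64 to 10.1 FPKM, and Upk3a at 27.2 FPKM, against 0 to 0.0553 FPKM. The seminal vesicle gene Svs1 was at 11062 FPKM, against 38.8 to 243 FPKM. Trp63 was the 1 gene of the 5 in which this library was low, at 1.27 FPKM against 2.62 to 2.74 FPKM. The 3 vehicle libraries were not given this test, and vehicle replicate 3 was also high in Krt20, Upk1a and Upk3a.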

How the results depend on the processing

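Under 14 other settings, 118 of 125 log2 differences of single keratins kept their direction and stayed short of the threshold, with adjusted p from 0.378 to 1.0; the filter of 1 FPKM in 3 libraries left no value for Krt20. No setting called a keratin or any other gene. The direction reversed for Krt7 with the replicate block (0.080), without vehicle replicate 3 (1.02), without LIT-927 replicate 2 (0.080), without LIT-927 replicate 4 (0.17) and without replicate 3 of both groups (0.63), for Krt20 without vehicle replicate 3 (0.38) and for Krt8 without vehicle replicate 4 (−0.0098); the cause was not tested. The count of keratins lower in every LIT-927 library was 3 after median-of-ratios or upper-quartile scaling (4.99% and 5.34% of all genes), 0 on FPKM as deposited (2.12%) and 3 to 4 with each library left out, where the share of all genes also went up, to 5.89% to 11.9%. Leaving out each library in turn gave −0.0098 to 0.36 for Krt8, 0.02 to 0.43 for Krt18, −0.67 to 1.02 for Krt7, −0.84 to −0.05 for Krt19, −0.92 to −0.40 for Krt5, −0.95 to −0.49 for Krt14, −1.89 to −0.39 for Krt15, −0.68 to −0.31 for Krt17 and −0.62 to 0.38 for Krt20. The LIT-927 mean of the Krt5 to Krt8 ratio was 0.561 of the vehicle mean, and 0.515 to 0.601 with a library left out.

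Whether equal replicate numbers mark pairs was not settled. Deviations from the group means correlated at 0.58 and 0.76 across genes for numbers 1 and 3 but at −0.17 for number 4. Vehicle replicate 1 was most like LIT-927 replicate 4 (0.64). Deviations within a group are tied to each other, so these correlations are not independent and cannot decide it. With the numbers as a block, 0 keratins and 0 genes were called. Krt17 rests on 21 to 86 fragments per library and Krt20 on 1 or 2 in 5 libraries, so these values carry more counting error. The smallest difference that could be detected was not tested.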

Other observations

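Keratins that belong to neither the described set nor the list of others were also present at low level. Krt32, a hair keratin, was represented by 22, 0 and 1 fragments in vehicle replicates 1, 3 and 4 and by 49, 14, 0 and 18 in LIT-927 replicates 1 to 4. Krt35, another hair keratin, was represented by 15, 0 and 2 fragments with vehicle and by 29, 10, 0 and 10 with LIT-927. Both had no fragment in the same libraries, replicate 3 of each group, where Krt20 had 179 and 122. Krt39, also a hair keratin, did not follow them, with 28, 25 and 4 fragments with vehicle and 6, 0, 24 and 28 with LIT-927, and Krt222 had 1 to 12 fragments in each library. Krt78, a keratin on the list of others, followed a similar order, with 116, 15 and 23 fragments with vehicle and 178, 93, 2 and 88 with LIT-927. Akr1b7 was lowest in that same pair, at 84.5 and 15.9 FPKM, and between 1597 and 17099 FPKM elsewhere. A count of 0 allows up to 3 fragments, for counting error only. These genes were chosen after their values were seen and were given no test.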
